A study of Homo sapiens with 18 samples.

Results

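The gelsolin and villin family comprises proteins built from repeated gelsolin-homology domains that bind actin filaments. Advillin (AVIL), villin 1 (VIL1), scinderin (SCIN), gelsolin (GSN), capping protein gelsolin-like (CAPG), flightless-1 (FLII) and supervillin (SVIL) were taken as its members by name, whatever their level, and these are 7 of the 19751 genes kept from the deposited table. Most members sever filaments and cap the fast-growing barbed end when calcium rises. Villin and advillin carry in addition a carboxy-terminal headpiece with which villin bundles filaments, and both proteins mark tuft cells, the chemosensory epithelial cells named for a tall apical bundle of microvilli on long actin rootlets. CAPG caps filaments without severing them, while FLII and SVIL are large scaffold-like relatives that link actin to signalling proteins, membranes and nuclear receptors.

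The RNA came from NCI-H211, an established line from small cell lung cancer that belongs to the tuft-like, POU2F3-positive subtype. POU2F3 is a POU-domain transcription factor that specifies tuft cells. All cells carried Cas9 and belonged to 1 of 3 stable lines, which expressed either no cDNA (empty vector), wild-type POU2F3 from a cDNA that the guide cannot cut (WT) or such a cDNA with the mutation L191A. Each line received lentivirus with the control guide sgRosa or with sgPOU2F3 against the endogenous gene, in triplicate, and polyA RNA was collected at day 5. The 6 groups of 3 libraries were thus empty vector sgRosa, empty vector sgPOU2F3, WT sgRosa, WT sgPOU2F3, L191A sgRosa and L191A sgPOU2F3. The control guide is called non-targeting in the labels. There is 1 stable line for each construct, so a difference between lines cannot be told apart from a difference between the cell pools, and p-values cover only the spread between infections of a line. The guide against POU2F3 acts in a bulk population, in which fewer cells with a transcript and less transcript per cell cannot be told apart.

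Values are TPM, an abundance of transcripts scaled for their length, so levels may be compared between genes. The values of every library sum to the same total, and the sequencing depth is unknown. A pair of libraries stood apart: L191A sgRosa 1 and WT sgPOU2F3 1 had median levels of 7.05 and 12.73 TPM over the 13073 tested genes, against 18.6 to 26.44 TPM in the other 16 libraries. Ribosomal protein genes took 37.6% and 32.4% of their TPM, against 15.6% to 26.2% elsewhere. Values are over all 18 libraries unless stated, and are also given over the 16 without this pair where a call or a value of a member turned on it. The fit pools the spread over all 6 groups. A contrast of groups without a library of the pair therefore keeps its estimate over 16 libraries, and only its SE and p-values change. For the targeted gene POU2F3 the empty vector line gave 729 ± 108 TPM under sgRosa and 281 ± 33.1 TPM under sgPOU2F3 (SD, n = 3 each). In the WT line its level was 1792 ± 90.0 TPM under sgRosa and 1154 ± 114 TPM under sgPOU2F3 (SD, n = 3 each), values that may include the cDNA. The 3 L191A sgRosa libraries held 142, 1053 and 831 TPM of POU2F3 and the L191A sgPOU2F3 group 646 ± 25.7 TPM (SD, n = 3), so L191A sgRosa 1 is far below its group in the targeted gene too. Of 16 tuft marker genes, 13 had a mean of at least 1 TPM in each group. Neuroendocrine markers were mixed: CHGA, CHGB and GRP were under 1 TPM in every library, while group means were 52.7 to 129 TPM for NCAM1, 18.2 to 64.1 TPM for CALCA, 5.56 to 21.1 TPM for DLL3 and 2.47 to 6.26 TPM for INSM1. None of 6 enterocyte markers reached a mean of 1 TPM in any group, so the villin signal here is not accompanied by the usual enterocyte genes.

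The main pattern was a division of the family by line. AVIL was the most abundant member in all 6 groups, VIL1 was high only in the empty vector line, and SCIN was high only in the WT line, as tested gene by gene in the following paragraphs. The summed level of the 7 members was 1088 ± 121 TPM in empty vector sgRosa, 483 ± 39.3 TPM in empty vector sgPOU2F3, 1209 ± 59.2 TPM in WT sgRosa and 287 ± 6.27 TPM in L191A sgPOU2F3 (SD, n = 3 each). In WT sgPOU2F3 the sum was 752 ± 71.9 TPM and in L191A sgRosa 365 ± 155 TPM (SD, n = 3 each), or 794 and 454 TPM without the pair (n = 2 each). AVIL supplied 80.7% ± 0.894 of the family's TPM in empty vector sgRosa and 56.8% ± 2.09 in WT sgRosa (SD, n = 3 each). SCIN went from 1.02% ± 0.105 to 27.5% ± 2.05 of the family total between the same groups, and VIL1 from 6.01% ± 0.347 to 0.763% ± 0.0900 (SD, n = 3 each). In L191A sgPOU2F3 the largest shares after AVIL were FLII with 16.5% ± 0.544 and CAPG with 15.6% ± 0.666 (SD, n = 3 each).

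**Figure D1:**
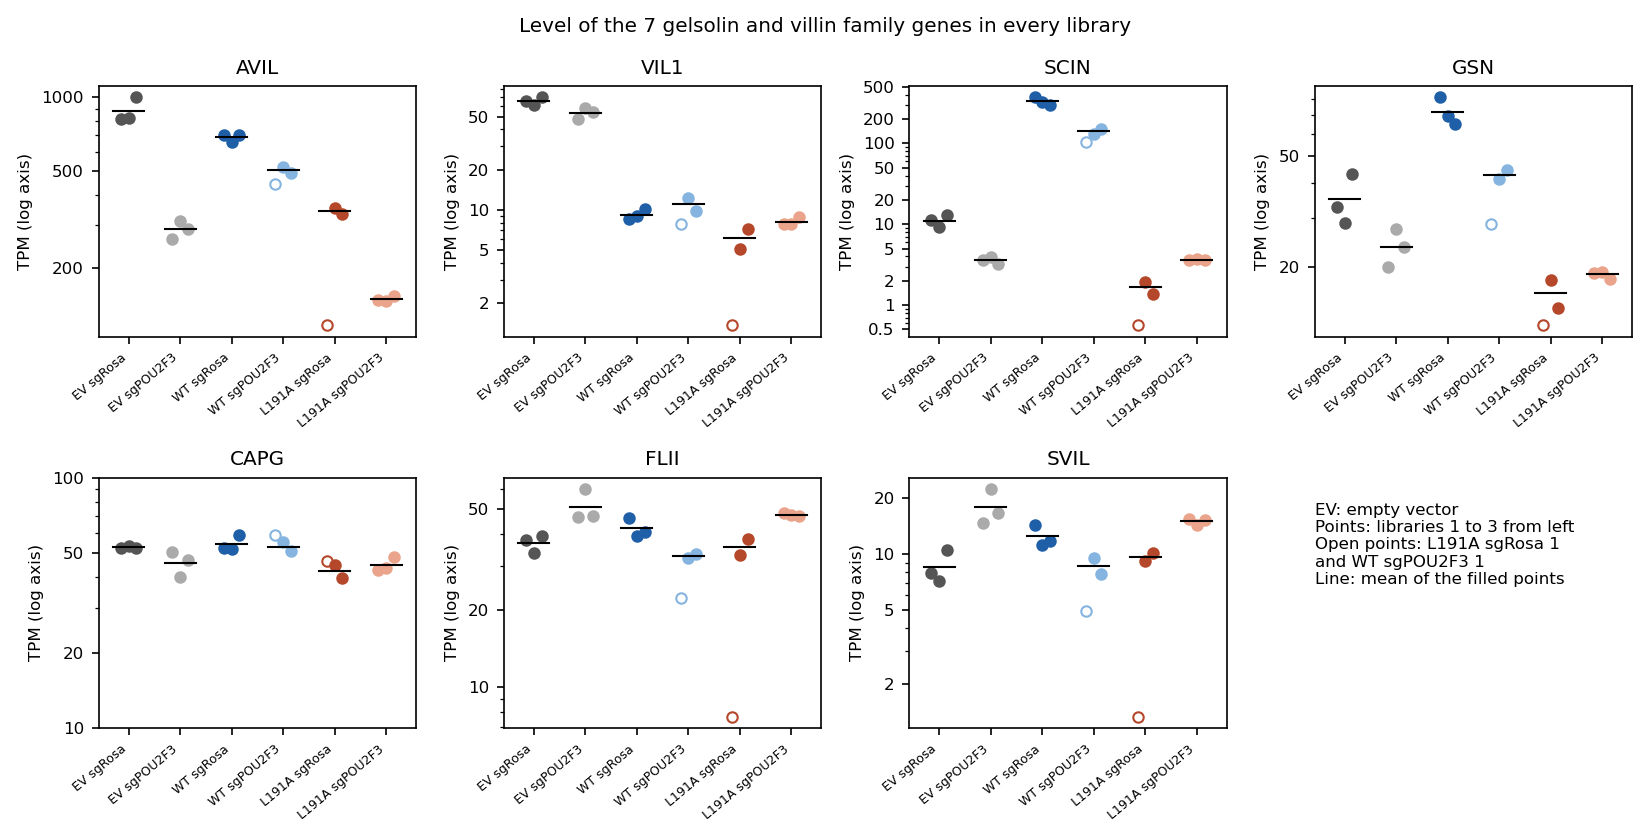
Level of each of the 7 family genes in TPM on a log axis, by group, with the 3 libraries of a group from left to right; open points are L191A sgRosa 1 and WT sgPOU2F3 1 and the line is the mean of the filled points. VIL1 stands at 47.69 to 69.55 TPM in the empty vector line and below 13 TPM elsewhere, SCIN above 100 TPM in the WT line and below 14 TPM elsewhere, and CAPG stays within 39.87 to 59.15 TPM.

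**Figure D2:**
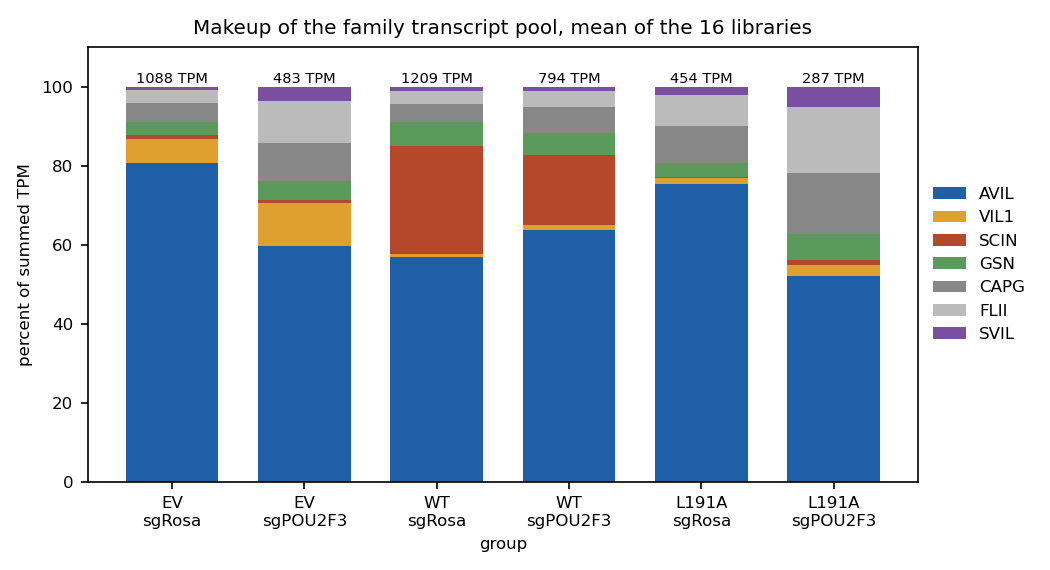
Share of each member in the summed TPM of the 7 genes, in percent, as a stacked bar per group and as the mean over the 16 libraries. AVIL holds the largest share in all 6 groups, from 52.0% in L191A sgPOU2F3 to 80.7% in empty vector sgRosa.

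Advillin, an actin bundler and severer known from sensory neurons and tuft cells, was the most abundant member and fell under the guide in the empty vector line. It was at 815, 822 and 1000.0 TPM in the 3 empty vector sgRosa libraries and at 262, 312 and 291 TPM in empty vector sgPOU2F3. The groups did not overlap, and AVIL fell by 1.60 on the log2(TPM + 1) scale (SE 0.28, limma adjusted p = 0.000933), a 3.04-fold fall. Over the 16 libraries the change was the same by construction, as the pair holds no empty vector library. Its SE was then 0.09 and its limma adjusted p = 5.44e-10, from the spread pooled over all groups, so this is no second test.

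In the WT line the guide groups lay closer together. AVIL was at 703, 655 and 703 TPM under sgRosa and at 441, 518 and 492 TPM under sgPOU2F3, again without overlap. The change of -0.51 (95% interval -1.11 to 0.09) did not pass the limma test over 18 libraries (adjusted p = 0.183), and over 16 libraries it was -0.44 with adjusted p = 0.00776. All genes together had a median change of -0.42 in this comparison over 18 libraries and -0.26 over 16. With median-ratio scaling the AVIL change was -0.05 (limma adjusted p = 0.778), and with quantile normalization -0.60 (adjusted p = 0.0568).

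The L191A line held less AVIL than the others already under sgRosa. Its sgRosa libraries were at 117, 353 and 332 TPM, the first being the library of the pair, and its sgPOU2F3 libraries at 148, 146 and 153 TPM. Against empty vector sgRosa the difference was -1.86 (SE 0.28, limma adjusted p = 0.000389) over 18 libraries and -1.35 (SE 0.10, adjusted p = 5.70e-08) over 16. The guide effect in this line was -0.68 (limma adjusted p = 0.190) over 18 libraries and -1.19 (SE 0.10, adjusted p = 2.77e-07) over 16. With all 18 libraries it was also called after median-ratio scaling (-1.13, limma adjusted p = 3.1e-05) and quantile normalization (-0.80, adjusted p = 0.0298). Under sgPOU2F3 the L191A line held less AVIL than the WT line by 1.69 log2 units (difference -1.69, SE 0.28, limma adjusted p = 0.000753), a 3.22-fold difference.

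The order of the AVIL group means over the 16 libraries was empty vector sgRosa, WT sgRosa, WT sgPOU2F3, L191A sgRosa, empty vector sgPOU2F3 and L191A sgPOU2F3, and no neighbours in that order overlapped. With the pair included, L191A sgRosa and empty vector sgPOU2F3 overlapped. The WT line under sgPOU2F3 was above the empty vector line under sgPOU2F3 by 0.74 (limma adjusted p = 0.0751) over 18 libraries and by 0.81 (adjusted p = 8.97e-06) over 16. The difference between the guide effects in the WT and the empty vector line was 1.09 (95% interval 0.24 to 1.94, limma adjusted p = 0.120) over 18 libraries and 1.16 (adjusted p = 1.17e-05) over 16. With all 18 libraries it was called after median-ratio scaling (1.41, limma adjusted p = 0.000146) and quantile normalization (1.18, adjusted p = 0.0149).

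AVIL lies on the minus strand of chromosome 12 (GRCh38, 57797376 to 57818704). The 250 bases before its RefSeq start are shown because AVIL fell under the guide against POU2F3 in the empty vector line and because POU factors are known to bind an octamer, ATGCAAAT. Between WT sgRosa and empty vector sgRosa AVIL differed by -0.35 (limma adjusted p = 0.602 over 18 and 0.00599 over 16 libraries). POU2F3 was higher in WT sgRosa, at a level that may include the cDNA, and a link between POU2F3 and AVIL levels was not tested. Capitals mark a match to the first 7 letters of that octamer.

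AVIL promoter, chr12:57818735-57818984, minus strand, GRCh38.p14, 5′ to 3′: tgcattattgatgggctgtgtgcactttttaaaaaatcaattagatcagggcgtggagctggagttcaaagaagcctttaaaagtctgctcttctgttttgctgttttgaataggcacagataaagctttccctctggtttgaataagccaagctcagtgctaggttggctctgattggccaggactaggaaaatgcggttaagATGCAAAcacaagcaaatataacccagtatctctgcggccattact

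The match ATGCAAA lies 46 to 40 bases before the start. It occurs in 3.94% of 35116 RefSeq promoter windows of 250 bases, searched on both strands, and in 1 of the 17 windows that 6 of the 7 members have. The full octamer ATGCAAAT, which contains it, occurs in 1.63% of all windows and in 0 of the 17. The match is a description of letters and no binding was measured. AVIL shares 303 exonic bases, 5.15% of its own, with TSFM on the opposite strand. TSFM, a mitochondrial translation factor, was at 78.1 ± 2.09 TPM in empty vector sgRosa and 76.9 ± 2.06 TPM in empty vector sgPOU2F3 (SD, n = 3 each), so its level did not move with that of AVIL there.

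Villin 1, the microvillus bundling protein of brush borders, separated the lines but did not pass the test for the guide in any of them over 18 or 16 libraries on the deposited scale. The empty vector libraries held 65.0, 60.9 and 69.6 TPM under sgRosa and 47.7, 57.6 and 53.6 TPM under sgPOU2F3. The WT line held 8.54, 8.97 and 10.1 TPM under sgRosa and 7.86, 12.2 and 9.80 TPM under sgPOU2F3. The L191A line held 1.37, 5.04 and 7.20 TPM under sgRosa and 7.82, 7.77 and 8.77 TPM under sgPOU2F3. All 6 empty vector libraries were above all 12 libraries of the cDNA lines, by more than the spread within any group.

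Against empty vector, VIL1 was lower in the WT line under sgRosa by a log2 difference of -2.70 (SE 0.32, limma adjusted p = 4.74e-05), or 6.49-fold. The same contrast under sgPOU2F3 gave -2.32 (SE 0.32, limma adjusted p = 0.000102). For the L191A line the differences were -3.76 (limma adjusted p = 1.44e-06) under sgRosa, or -3.23 over 16 libraries, and -2.56 (adjusted p = 8.87e-05) under sgPOU2F3. These contrasts share the empty vector libraries.

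The guide effect on VIL1 was -0.30 (95% interval -0.97 to 0.38) in the empty vector line, 0.09 (-0.59 to 0.76) in the WT line and 0.90 (0.22 to 1.58) in the L191A line. The limma adjusted p-values were 0.592, 0.845 and 0.125 over 18 libraries and 0.0591, 0.193 and 0.118 over 16. The effect was called in the WT line after quantile normalization (0.66, limma adjusted p = 0.0120) and in the L191A line without the third L191A sgRosa library (1.27, adjusted p = 0.0137). In the empty vector line the 2 groups nevertheless did not overlap. In order of level VIL1 ran from empty vector sgRosa and sgPOU2F3 to WT sgPOU2F3, WT sgRosa, L191A sgPOU2F3 and L191A sgRosa, and WT sgRosa overlapped both of its neighbours in that order. VIL1 lies on the plus strand of chromosome 2 (GRCh38, 218419092 to 218453295) and shares 3045 exonic bases, 44.0% of its own, with USP37 on the opposite strand. The strand setting is not given in the sources used here, so reads of the shared bases could not be assigned, and USP37 was at 22.9 TPM in empty vector sgRosa and 16.7 TPM in WT sgRosa.

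Scinderin, also called adseverin, severs and caps filaments in a calcium-dependent way and is known from secretory cells. It showed the largest line difference of the family. It was at 11.2, 9.12 and 13.1 TPM in empty vector sgRosa, at 371, 328 and 299 TPM in WT sgRosa and at 0.565, 1.93 and 1.38 TPM in L191A sgRosa. Under sgPOU2F3 the libraries held 3.58, 3.96 and 3.24 TPM in the empty vector line, 106, 131 and 150 TPM in the WT line and 3.65, 3.67 and 3.66 TPM in the L191A line. Every WT library was above every library of the other lines.

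The WT line exceeded the empty vector line by 4.79 (SE 0.22, limma adjusted p = 1.95e-09) under sgRosa, or 27.6-fold, and by 4.81 (SE 0.22, adjusted p = 1.09e-09) under sgPOU2F3. The L191A line lay below the empty vector line under sgRosa by a log2 difference of -2.44 (SE 0.22, limma adjusted p = 2.20e-06), or -2.19 over 16 libraries. Under sgPOU2F3 the L191A and empty vector lines differed by 0.02 (95% interval -0.44 to 0.49), with overlapping libraries. Because 1 is added to each value, changes at these low levels are understated.

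SCIN fell under the guide, with a change of -1.39 in the empty vector line (SE 0.22, limma adjusted p = 0.000322) and of -1.37 in the WT line (SE 0.22, adjusted p = 0.00264), or -1.23 over 16 libraries. In the L191A line SCIN rose by 1.07 (SE 0.22, limma adjusted p = 0.00574), or by 0.82 over 16 libraries (adjusted p = 0.00101). The groups did not overlap in any line. The guide effect in the L191A line differed from that in the empty vector line by 2.46 (SE 0.31, limma adjusted p = 0.000283) and from that in the WT line by 2.44 (SE 0.31, adjusted p = 0.000275). The guide effects in the WT and empty vector lines differed by 0.02 (95% interval -0.63 to 0.68). The 3 sgRosa libraries of the L191A line span 0.565 to 1.93 TPM, so the rise is between low levels, and it did not pass the test with a pseudocount of 5 or when only the 2 L191A groups were fitted. In order of level SCIN ran from WT sgRosa and WT sgPOU2F3 through empty vector sgRosa to L191A sgPOU2F3, empty vector sgPOU2F3 and L191A sgRosa, and only L191A sgPOU2F3 and empty vector sgPOU2F3 overlapped among neighbours.

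SCIN lies on the plus strand of chromosome 7 (GRCh38, 12570577 to 12660179). Its RefSeq promoter is shown as the counterpart of that of AVIL, since SCIN moved furthest between lines. The printed stretch ends at the first GENCODE base of the gene, and 143 bases of the window that are exonic in GENCODE are left out. No searched motif lies in the RefSeq window of SCIN, so nothing is in capitals.

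SCIN promoter, chr7:12570470-12570576, plus strand, GRCh38.p14, 5′ to 3′: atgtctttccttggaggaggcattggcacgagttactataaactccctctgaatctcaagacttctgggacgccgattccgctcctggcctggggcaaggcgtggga

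Its GC content over the 107 printed bases is 55.1%. The AVIL stretch has 42.4% and all promoter windows a median of 58.0%, both over the full 250 bases before the start. The SCIN value lacks the bases nearest the start, so it covers an unlike stretch. The nearest tested gene on the side of lower coordinates is VWDE, 166636 bases away and encoding a von Willebrand factor D and EGF domain protein. VWDE was at 67.9 TPM in empty vector sgRosa and 274 TPM in WT sgRosa, a log2 difference of 2.02 (limma adjusted p = 7.06e-05), and at 10.2 TPM in L191A sgRosa over 16 libraries. TMEM106B, beyond VWDE, was at 54.0 TPM in empty vector sgRosa and 54.6 TPM in WT sgRosa. These neighbours were looked at after the SCIN values were known.

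Gelsolin, the founding severer and barbed-end capper, was likewise highest in the WT line and lowest in L191A sgRosa, over a smaller range than SCIN. Its order of group means differed from that of SCIN in the exchange of L191A sgPOU2F3 and empty vector sgPOU2F3, and among neighbours only WT sgPOU2F3 and empty vector sgRosa overlapped. It was at 32.8, 28.8 and 43.1 TPM in empty vector sgRosa, at 80.9, 69.7 and 65.0 TPM in WT sgRosa and at 12.4, 17.96 and 14.3 TPM in L191A sgRosa. Under sgPOU2F3 it was at 19.9, 27.4 and 23.5 TPM in the empty vector line, at 28.4, 41.2 and 44.5 TPM in the WT line and at 19.1, 19.1 and 18.1 TPM in the L191A line. The 3 lines did not overlap under sgRosa.

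Under sgRosa the WT line exceeded the empty vector line by 1.04 (SE 0.20, limma adjusted p = 0.00483) and the L191A line differed from it by -1.17 (SE 0.20, adjusted p = 0.00105). Between the L191A and WT lines the difference under sgRosa was -2.21 (SE 0.20, limma adjusted p = 2.25e-06), or 4.62-fold. The median of all genes was -0.56 and -0.67 in these 2 L191A contrasts. With median-ratio scaling they were -0.55 and -1.48 (limma adjusted p = 0.0314 and 2.05e-05), and with quantile normalization -0.56 and -1.64. Under sgPOU2F3 the WT line stayed above the empty vector line by 0.65 (limma adjusted p = 0.0321), a call that was lost without any of 4 single libraries, namely empty vector sgPOU2F3 1 or 3 and WT sgPOU2F3 2 or 3 (adjusted p = 0.0798 to 0.127). Without the pair this difference was 0.84 (limma adjusted p = 0.000561).

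The guide changed GSN by -0.92 in the WT line (SE 0.20, limma adjusted p = 0.0211). Leaving out any of the WT sgRosa libraries or the first WT sgPOU2F3 library ended that call (limma adjusted p = 0.0561 to 0.122) and so did median-ratio scaling (-0.48, adjusted p = 0.0805 from limma), and over the 16 libraries it was -0.73 with adjusted p = 0.00783. In the empty vector line the change was -0.54 (95% interval -0.97 to -0.11, limma adjusted p = 0.0833), and over the 16 libraries its adjusted p was 0.00553. The L191A line gave 0.33 (95% interval -0.10 to 0.76, limma adjusted p = 0.298), a sign that turned with median-ratio scaling (-0.10). The guide effects in the L191A and WT lines differed by 1.25 (SE 0.29, limma adjusted p = 0.0169), by 0.38 (adjusted p = 0.257) with median-ratio scaling and by 0.49 (adjusted p = 0.133) with quantile normalization. GSN lies on the plus strand of chromosome 9 (GRCh38, 121207794 to 121332843).

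The capping member CAPG was the steadiest of the 7. It stayed between 39.9 and 59.2 TPM in all 18 libraries, and its group means over the 16 libraries spanned 0.35 log2 units, against 6.98 for SCIN, 3.23 for VIL1, 2.54 for AVIL and 2.09 for GSN. The guide effect was -0.21 in the empty vector line (95% interval -0.47 to 0.06), 0.01 in the WT line (-0.25 to 0.28) and 0.04 in the L191A line (-0.23 to 0.30), where each sign but the first turned under another scaling or without the pair. The only comparison it passed over 18 libraries was L191A minus WT under sgRosa with -0.31 (limma adjusted p = 0.0445), which became 0.43 with median-ratio scaling and 0.13 with quantile normalization. CAPG lies on the minus strand of chromosome 2 (GRCh38, 85394748 to 85418432). Its neighbour SH2D6, a tuft marker 289 bases away, fell by 2.74 on the log2 scale in the empty vector line under the guide (limma adjusted p = 9.29e-06), from 47.2 to 6.29 TPM.

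FLII, which binds actin and nuclear receptor coactivators, passed no comparison over 18 libraries on the deposited scale, and L191A sgRosa 1 lay far below all other libraries. The sgRosa libraries held 37.7, 33.7 and 39.0 TPM in the empty vector line, 46.1, 39.2 and 40.6 TPM in the WT line and 7.68, 32.9 and 38.3 TPM in the L191A line. Under sgPOU2F3 they held 46.3, 59.9 and 46.8 TPM, 22.5, 32.0 and 33.3 TPM, and 48.2, 47.4 and 46.8 TPM in the same order of lines. The guide effects over 18 libraries were 0.45, -0.52 and 1.10 in the empty vector, WT and L191A lines (limma adjusted p = 0.485, 0.301 and 0.119). Over the 16 libraries they were 0.45, -0.35 and 0.41 (limma adjusted p = 0.00208, 0.0335 and 0.0329), where the median of all genes in the WT line was -0.26. With median-ratio scaling of all 18 libraries they were 0.59, -0.08 and 0.68 (limma adjusted p = 0.0230, 0.742 and 0.0222). Quantile normalization gave 0.54, -0.11 and 0.62 (limma adjusted p = 0.0134, 0.604 and 0.0135). Under sgPOU2F3 those 2 scalings also called FLII lower in WT than in empty vector (-0.59 and -0.51) and higher in L191A than in WT (0.55 and 0.51). Its effect in the WT line differed from that in the empty vector line by -0.80 (limma adjusted p = 0.00165) over the 16 libraries. FLII lies on the minus strand of chromosome 17 (GRCh38, 18244836 to 18258916).

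Supervillin, which ties actin and myosin to the plasma membrane, had guide effects of the same signs as FLII at a lower level. SVIL was at 7.90, 7.19 and 10.5 TPM in empty vector sgRosa and at 14.8, 22.5 and 16.7 TPM in empty vector sgPOU2F3. It was at 14.4, 11.2 and 11.8 TPM in WT sgRosa and at 4.91, 9.49 and 7.84 TPM in WT sgPOU2F3. In the L191A line it was at 1.33, 9.18 and 10.2 TPM under sgRosa and at 15.4, 14.3 and 15.4 TPM under sgPOU2F3. The guide groups did not overlap in any line, with higher levels under sgPOU2F3 in the empty vector and L191A lines and lower levels in the WT line.

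Over 18 libraries the SVIL guide effects were 0.99 (95% interval 0.07 to 1.91), -0.71 (-1.63 to 0.21) and 1.32 (0.40 to 2.24) in the empty vector, WT and L191A lines, with limma adjusted p-values of 0.137, 0.215 and 0.0934. Without the pair they were 0.99, -0.48 and 0.59, with adjusted p-values of 9.55e-05, 0.0449 and 0.0413, against an all-gene median of -0.26 in the WT line. With median-ratio scaling of all 18 libraries they were 1.11, -0.31 and 1.01 (limma adjusted p = 0.00458, 0.381 and 0.0196), and with quantile normalization 1.13, -0.18 and 0.87 (adjusted p = 0.000679, 0.533 and 0.0125). The effects in the L191A and WT lines differed by 2.03 (SE 0.61, limma adjusted p = 0.0457), and by 1.07 (adjusted p = 0.0108) over 16 libraries. Leaving out any of the WT sgRosa or L191A sgPOU2F3 libraries or the first WT sgPOU2F3 library ended the call over all libraries (limma adjusted p = 0.0738 to 0.125). SVIL lies on the minus strand of chromosome 10 (GRCh38, 29457338 to 29736781). The RefSeq windows of CAPG and SVIL each hold 1 match to an AP-1 site, TGANTCA, which 6.57% of all windows hold.

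**Figure D3:**
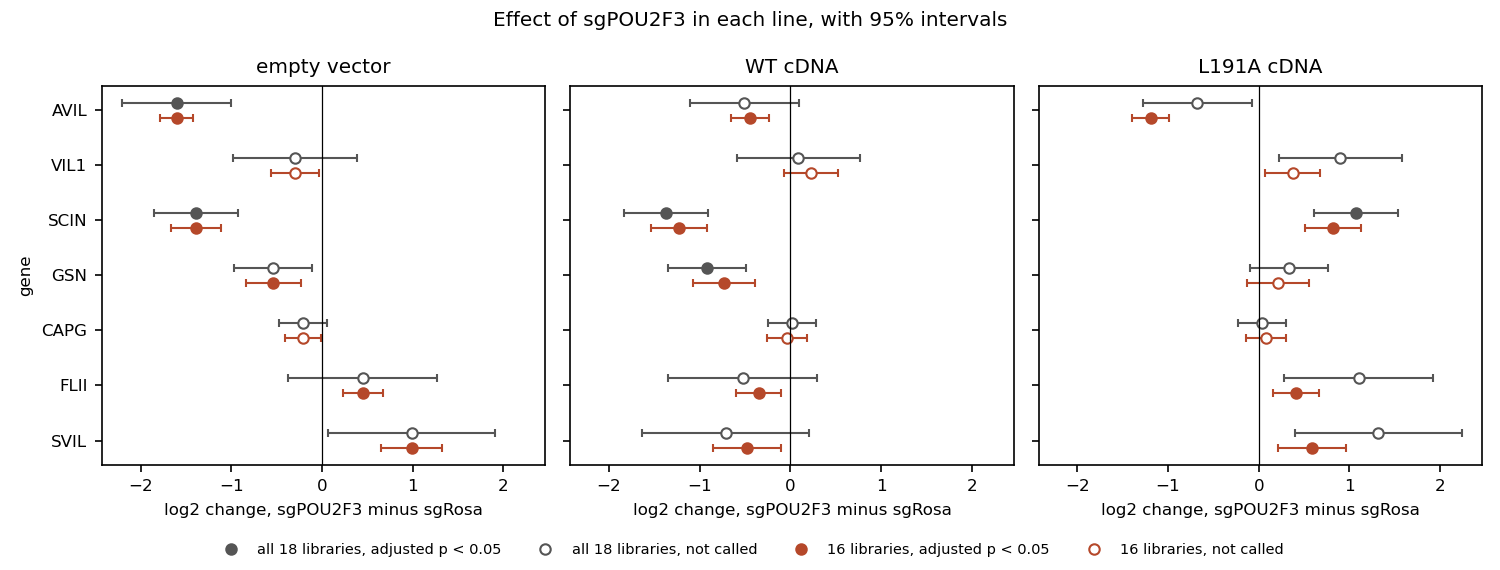
Change of each member under sgPOU2F3 against sgRosa in the 3 lines on the log2(TPM + 1) scale, with 95% intervals, over all 18 libraries and over the 16 without the pair. AVIL and SCIN lie below 0 in the empty vector line in both sets, SCIN lies above 0 in the L191A line, and the intervals narrow without the pair.

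Counted over the family, the guide in the empty vector line lowered 2 of the 7 members and raised 0, where 17.5% of all tested genes were called and 9.52% as lower. The members' median change was -0.30 and that of all genes -0.13. Over the 16 libraries 3 members were lower and 2 higher, against 51.7% of all genes, so the count grew with the background. In the WT line 2 members were lower, with 6.82% of all genes called and 5.26% as lower, and medians of -0.52 for the members and -0.42 for all genes. Over 16 libraries 5 were lower, with 36.1% of all genes called and 30.4% as lower. In the L191A line SCIN alone was called, where 6.0% of all genes were and 5.43% as higher, with medians of 0.90 and 0.33. Over 16 libraries 3 members were higher and AVIL lower, where 10.7% of all genes were called.

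Between lines under sgRosa, WT against empty vector had SCIN and GSN higher and VIL1 lower, with 7.21% of all genes called and medians of 0.18 and 0.08. L191A against empty vector had 4 members lower, AVIL, VIL1, SCIN and GSN, with 36.0% of all genes called, 31.0% as lower, and medians of -1.17 and -0.56. L191A against WT had 6 members lower, where 55.8% of all genes were called, 48.0% as lower, and medians of -1.06 and -0.67. Over 16 libraries these 3 contrasts called 5 members each, with 34.3%, 39.2% and 58.2% of all genes called. In the 2 contrasts of the L191A line all 5 were lower, and so were 29.9% and 44.3% of all genes.

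Under sgPOU2F3, WT against empty vector again had SCIN and GSN higher and VIL1 lower, with 20.6% of all genes called and medians of 0.27 and -0.19. L191A against empty vector called VIL1 alone, where 3.79% of all genes were called and 2.17% as lower, with medians of -0.22 and -0.06. L191A against WT had AVIL, SCIN and GSN lower, where 13.5% of all genes were called and 5.73% as lower, with medians of -0.29 and 0.14. Over 16 libraries the counts were 6, 2 and 6 members, with 43.6%, 22.9% and 37.4% of all genes called. The 2 members of the middle contrast, AVIL and VIL1, were lower, as were 14.6% of all genes.

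The number of members whose guide effect differed between lines depended on the contrast and on the libraries used. Between the WT and empty vector lines 0 members were called by limma over 18 libraries, 2 had an unadjusted p under 0.05, and 6.98% of all genes were called. Without the pair AVIL, FLII and SVIL were called, with 26.7% of all genes. Between the L191A and empty vector lines SCIN alone was called, where 6.08% of all genes were and 4.28% in the same direction. Over 16 libraries 4 members were called, all with a higher effect in the L191A line, with 23.2% of all genes called and 15.7% in that direction. Between the L191A and WT lines SCIN, GSN and SVIL were called, where 11.7% of all genes were and 10.7% in the same direction. Over 16 libraries 5 were called, with 13.2% of all genes.

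The rest of the actin machinery was described from lists of 132 genes, of which 112 had a mean of at least 1 TPM. With the guide in the empty vector line 17 of these rose and 6 fell, or 20.5% against the background of 17.5%, with a median of 0.04. Over 16 libraries 37 rose and 20 fell, or 50.9% against 51.7%. Both shares lie close to the background, but the directions do not. Of all genes 1039 rose and 1244 fell over 18 libraries, and 2492 rose and 4271 fell over 16. Rises thus made up 45.5% and 36.8% of all called genes, while in the lists more genes rose than fell in both sets. Whether the lists differ from the background was not tested.

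Among the monomer-binding and capping genes 2 of 19 rose and 3 fell, where 1039 of all 13073 tested genes rose and 1244 fell. The actin-sequestering thymosin TMSB4X rose from 376 ± 19.3 to 4066 ± 731 TPM (SD, n = 3 each), which is 3.42 in log2 (SE 0.19, limma adjusted p = 3.47e-09), and it also rose in the WT line by 1.80 and in the L191A line by 2.63. Profilin PFN1, which delivers actin monomers to growing ends, rose from 831 ± 59.2 to 1560 ± 98.2 TPM (SD, n = 3 each), which is 0.91 in log2 (SE 0.13). PFN4, of the profilin family, fell by 0.83 on the log2 scale and the thymosin TMSB15B by 0.48. Of 3 tested actin isoforms 1 rose, ACTB, by 0.87 (limma adjusted p = 0.00873) to 5417 ± 147 TPM (SD, n = 3).

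Among severing and depolymerizing factors outside the gelsolin family 4 of 24 rose and 0 fell. The background for each list here was 1039 rises and 1244 falls among the 13073 tested genes. WDR1, the cofilin helper, was higher by 0.73 and the coronin CORO1A by 0.72. Of 26 nucleation genes 6 rose and 1 fell. The Arp2/3 subunit ARPC5 fell by 0.89 (limma adjusted p = 0.000197) while its paralog ARPC5L rose by 0.82 (adjusted p = 0.000598), and the formin FHOD1 rose by 0.81. Of 19 bundling and crosslinking genes 3 rose and 0 fell, with the filamin FLNC higher by 2.11 and the tropomyosin TPM3 by 0.62.

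Of 19 microvillus and brush border genes 1 rose and 2 fell, against 1039 rises and 1244 falls among the 13073 tested genes. The spindle and actin bundling protein MISP rose from 0.337 to 5.38 TPM, a log2 change of 2.25 (limma adjusted p = 5.39e-08). The unconventional myosin gene MYO15B fell by 1.70 (limma adjusted p = 0.000801) and USH1C, the scaffold harmonin of microvillus tips, by 1.52 (adjusted p = 0.000277). Neither of the 2 flightless partner genes tested was called. VILL, the villin-like relative outside the list of 7, was at 1.35 ± 0.293 TPM in empty vector sgRosa and 0.454 ± 0.0971 TPM in empty vector sgPOU2F3 (SD, n = 3 each), near the floor of the tested range.

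Markers of other states moved beside these values. Of 13 tested tuft markers, POU2F3 itself among them, 8 fell with the guide in the empty vector line, where 9.52% of all genes were called lower. Over the 16 libraries 13 fell, where 51.7% of all genes were called, 4271 of the 13073 as lower. The summed level of the 16 listed genes, POU2F3 included, went from 5795 to 6851 TPM under sgRosa to 2043 to 2299 TPM under sgPOU2F3. Of 12 mesenchymal markers 8 rose and 1 fell there, where 17.5% of all genes were called, and 9 rose and 1 fell over 16 libraries, where 51.7% were, with sums of 25.8 to 32.5 TPM under sgRosa and 359 to 430 TPM under sgPOU2F3. The mesenchymal sum was 298 to 310 TPM in L191A sgPOU2F3 and 61.8 to 98.6 TPM in WT sgPOU2F3. COL3A1 and LUM were under 1 TPM in all empty vector sgRosa libraries. The part of these changes in the actin gene values was not tested.

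**Figure D4:**
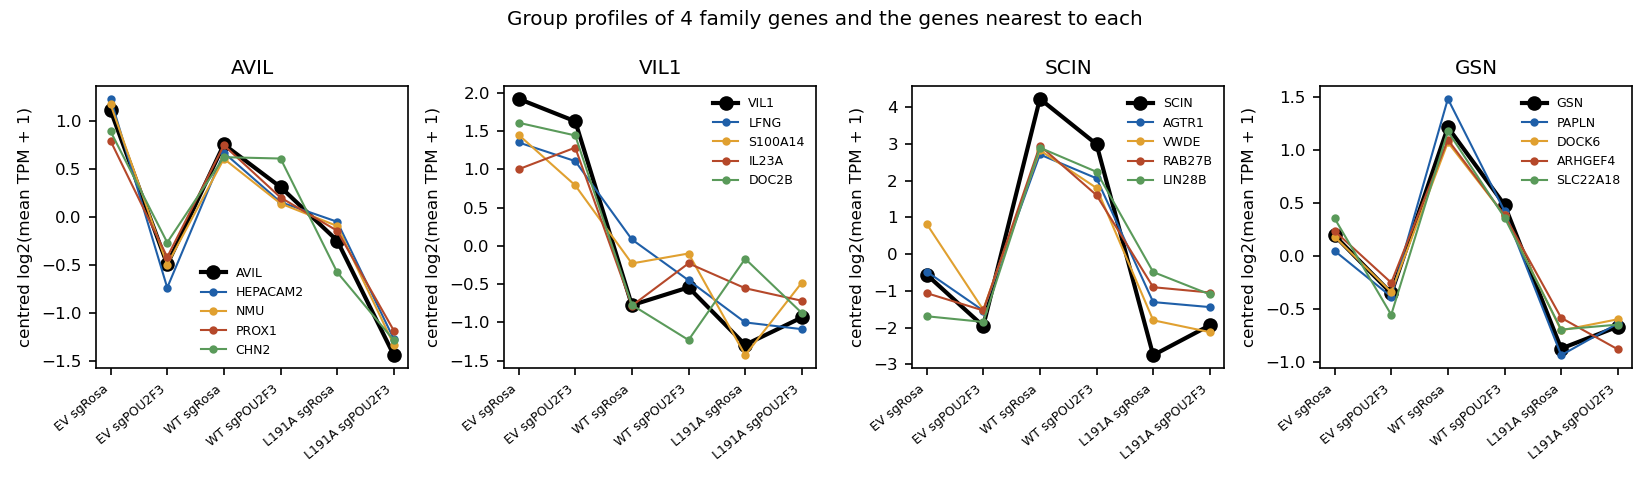
Centred profiles (log2 of group mean TPM + 1) of AVIL, VIL1, SCIN and GSN over the 6 groups (16 libraries), each with the 4 genes whose profiles lay closest. The AVIL and GSN neighbours lie within 0.24 and 0.17 log2 units (root mean square) and those of SCIN at 0.95 to 1.19. These distances are not scaled by a gene's range and are not comparable between members.

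The genes most like each member were found by the root mean square difference between centred log2 profiles over 16 libraries, among the 10666 genes whose mean level was 5 TPM or more. For AVIL these were HEPACAM2 and NMU at 0.18, PROX1 at 0.23 and CHN2 at 0.24. NMU, the neuropeptide neuromedin U, had group means of 1600 TPM in empty vector sgRosa, 502 TPM in empty vector sgPOU2F3, 1080 TPM in WT sgRosa and 281 TPM in L191A sgPOU2F3. For GSN they were PAPLN at 0.14, DOCK6 at 0.15, and ARHGEF4 and SLC22A18 at 0.17.

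For VIL1 the nearest were LFNG at 0.55, S100A14 and IL23A next and DOC2B at 0.60. For SCIN they were AGTR1 at 0.95, VWDE at 1.03, RAB27B at 1.10 and LIN28B at 1.19. AGTR1, the angiotensin receptor gene, went from 7.37 TPM in empty vector sgRosa to 75.0 TPM in WT sgRosa and was at 3.70 TPM in L191A sgRosa. VWDE, the neighbour of SCIN described above, is the only one of these 16 genes on the chromosome of its member. CAPG, FLII and SVIL spanned less than 1 log2 unit and were not compared in this way. The distance is not scaled by a gene's range, so the wide span of SCIN enters its distances, and they are not comparable between members. The likeness values share libraries and groups and carry no test.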

How the data were processed

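PolyA RNA of 18 libraries (6 groups of 3) was measured by RNA-seq. The authors deposited 1 table of TPM per gene, which the submitters' processing notes tie to kallisto and the hg38 build. For version, transcript set, strand setting and read depth the entry is: not given in the sources used here. Of 19875 entries, 124 name no gene (27 spreadsheet dates and 97 description fragments, 1.47% to 2.2% of TPM) and were left out. The 13073 genes averaging 1 TPM or more were fitted with limma 3.58.1 (R 4.3.3) on log2(TPM + 1) with an intensity trend, 1 coefficient per group over all 18 libraries, and Benjamini-Hochberg adjustment over all genes of a contrast; calls are at adjusted p under 0.05, two-sided. Folds are on the log2(TPM + 1) scale. The same fit was repeated over 16 libraries without L191A sgRosa 1 and WT sgPOU2F3 1. The script was tested on simulated data. The members, lists, contrasts and the left-out pair were chosen with earlier results of these data known.

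Named by rule were the 7 members, POU2F3, VILL and, per actin list, the 2 largest rises and 2 largest falls under the guide in the empty vector line among called genes with at least 5 TPM in the higher group, plus the 4 genes nearest in profile to each member spanning at least 1 log2 unit. Genomic neighbours and motifs were looked at after the values were known. Coordinates are from GENCODE v29 (GRCh38). Promoters, 250 bases before the start, are RefSeq's on GRCh38.p14, where 6 of 7 members matched by symbol.

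Replicate numbers were not used as pairs: deviations of same-numbered libraries correlated at -0.58 to 0.59, above 0.1 in 16 of 45 pairs. Those of differently numbered libraries in different groups correlated at -0.73 to 0.59, above 0.1 in 32 of 90 pairs. Alternatives were other pseudocounts (0.1 and 5), other filters (none, mean of 5 TPM), median-ratio scaling, quantile normalization, a replicate block, no trend, only the groups compared, and each library left out.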

Additional observations from a re-analysis of the deposited data

Results flagged for a closer look

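The effect of sgPOU2F3 differed between lines in 4 tests, each an interaction term of the limma fit over 18 libraries. The SCIN effect was higher in the L191A line than in the empty vector line by 2.46 (adjusted p = 0.000283) and than in the WT line by 2.44 (adjusted p = 0.000275), as SCIN rose in the L191A line and fell in the others. The GSN effect was higher in the L191A line than in the WT line by 1.25 (adjusted p = 0.0169), and the SVIL effect by 2.03 (adjusted p = 0.0457). Over the 16 libraries these 4 differences were 2.21, 2.05, 0.94 and 1.07, with limma adjusted p-values of 2.00e-06, 1.23e-05, 0.0131 and 0.0108. With median-ratio scaling of the 18 libraries the GSN difference was 0.38 (adjusted p = 0.257) and with quantile normalization 0.49 (adjusted p = 0.133), so its call was lost under both, while the other 3 stayed called. The libraries left out had low medians and high ribosomal protein shares, and the part of this in the differences was not tested.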

How the results depend on the processing

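Over single libraries left out in turn, the members called numbered 2 to 2 for the guide in the empty vector line, 1 to 2 in the WT line and 1 to 4 in the L191A line. Under sgPOU2F3 they were 2 to 3 for WT against empty vector, 1 to 1 for L191A against empty vector and 3 to 3 for L191A against WT; under sgRosa they were 3 to 3, 4 to 5 and 4 to 7 in the same order. For the differences between guide effects they were 0 to 0 (WT and empty vector), 1 to 3 (L191A and empty vector) and 1 to 5 (L191A and WT). With median-ratio scaling the members called were 4, 1 and 4 for the guide in the empty vector, WT and L191A lines, 6, 2 and 5 for the line contrasts under sgPOU2F3 and 2 for the WT and empty vector guide effects. For the guide that scaling called 3451, 1653 and 1262 of the 13073 genes. It called 3986, 1067 and 2897 genes under sgPOU2F3 and 1994 for the WT and empty vector guide effects. With quantile normalization the members called were 4 in the empty vector line, 4 in the L191A line, 6, 2 and 5 under sgPOU2F3, 3 for L191A against WT under sgRosa, and 4 and 3 for the guide effects of WT and of L191A against empty vector. In the same order all genes called were 4185, then 1488, then 4769, 1329 and 3570, then 6175, and then 2945 and 1974. Without the pair of libraries the members called were 5, 5 and 4 for the guide, 6, 2 and 6 under sgPOU2F3, 5 for WT against empty vector under sgRosa, and 3, 4 and 5 for the differences between guide effects. The shares of all genes called were then 51.7%, 36.1% and 10.7% for the guide and 43.6%, 22.9% and 37.4% under sgPOU2F3. They were 34.3% for WT against empty vector under sgRosa and 26.7%, 23.2% and 13.2% for the differences between guide effects. Fitting only the groups compared gave 5, 1 and 0 members for the guide, 5, 2 and 5 under sgPOU2F3, 5, 2 and 2 under sgRosa, and 3 and 1 for the guide effects of WT against empty vector and of L191A against WT. That setting called 144 of all genes for the guide in the L191A line and 300 for the L191A and WT guide effects. Under sgRosa it called 184 for L191A against empty vector and 1682 for L191A against WT. Its other all-gene counts lie within the ranges below. A pseudocount of 5 gave 0 members for the guide in the L191A line and 1 for the guide effects of WT and empty vector, where 839 and 1138 of all genes were called. The cause was not tested. Leaving out the pair and fitting only the groups compared use fewer libraries by construction. Without the pair the pooled SE was also smaller, for AVIL under the guide in the empty vector line 0.09 in place of 0.28.

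Signs turned for values that were not called, and for 1 that was called, CAPG in L191A minus WT under sgRosa (0.43 with median-ratio scaling, 0.13 with quantile normalization). Under these 2 scalings CAPG also gave -0.41 and -0.23 for the guide in the L191A line, 0.0306 and 0.0776 for L191A minus empty vector under sgPOU2F3, and 0.37 and 0.14 under sgRosa. Its differences between guide effects became -0.34 and -0.0649 (L191A and empty vector) and -0.87 and -0.58 (L191A and WT), and with median-ratio scaling WT minus empty vector under sgRosa became -0.0572. GSN turned to -0.10 and -0.11 for the guide in the L191A line, and SVIL to -0.10 and -0.25 for the L191A and empty vector guide effects. With quantile normalization alone SVIL became 0.10 for L191A minus empty vector under sgRosa, FLII 0.0001 under sgPOU2F3, SCIN -0.16 for the WT and empty vector guide effects, which a pseudocount of 5 made -0.44, and VIL1 -0.22 for the L191A and WT guide effects. Without the pair CAPG became -0.0361 for the guide in the WT line, SVIL 0.18 for L191A minus empty vector under sgRosa, and FLII and SVIL -0.0418 and -0.40 for the L191A and empty vector guide effects. Without single libraries the guide in the WT line ranged from -0.0566 to 0.23 for VIL1 and from -0.0361 to 0.0753 for CAPG, and in the L191A line from -0.0269 to 0.078 for CAPG. L191A minus empty vector under sgPOU2F3 ranged from -0.0324 to 0.0812 for SCIN, from -0.11 to 0.046 for CAPG and from -0.15 to 0.0273 for FLII. Under sgRosa WT minus empty vector ranged from -0.0151 to 0.0773 for CAPG and L191A minus empty vector from -0.95 to 0.18 for SVIL. The differences between guide effects ranged from -0.10 to 0.16 for SCIN (WT and empty vector), from -0.0418 to 1.05 for FLII and from -0.40 to 0.73 for SVIL (L191A and empty vector), and from -0.69 to 0.11 for AVIL and from -0.0419 to 0.0721 for CAPG (L191A and WT). Of the values of single members under other settings, 1267 kept direction and side of the threshold, 103 gained and 50 lost a call, and 50 changed sign.

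The number of all genes called moved too. Over all settings the guide called 1285 to 6763 genes in the empty vector line (2283 as reported), 110 to 4716 in the WT line (892) and 144 to 1766 in the L191A line (784). The line contrasts under sgPOU2F3 called 1733 to 5704 (2691), 269 to 2988 (495) and 998 to 4890 (1767), and under sgRosa 417 to 4489 (942), 184 to 7493 (4700) and 1682 to 8918 (7291). The differences between guide effects called 538 to 3493 (913), 292 to 3039 (795) and 300 to 7261 (1531). With median-ratio scaling the share of higher among called genes went from 23.0% to 52.5% (guide, WT), 90.6% to 66.4% (guide, L191A), 32.4% to 47.8% and 57.6% to 47.4% (WT against empty vector and L191A against WT, sgPOU2F3), 13.8% to 50.9% and 13.9% to 51.5% (L191A against empty vector and against WT, sgRosa), and 24.5% to 45.3%, 70.4% to 52.8% and 91.7% to 54.2% (guide effects). Quantile normalization took WT against empty vector under sgRosa from 63.5% to 47.5%.

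The replicate numbers were not used as pairs, and 8 of 18 libraries correlated best with their own number. With 3 libraries a group such a check cannot exclude a pairing. With the replicate block the members called were 2, 2 and 1 for the guide, 4, 1 and 3 for the line contrasts under sgPOU2F3, 3, 4 and 6 under sgRosa, and 0, 1 and 4 for the guide effects. The limma adjusted p became 0.0482 for SVIL in WT against empty vector under sgPOU2F3, 0.0561 for CAPG and 0.0438 for FLII in L191A against WT under sgRosa, and 0.0422 for FLII in the L191A and WT guide effects, and no other member's call changed. The guide in the WT line then called 1446 genes in place of 892 and the L191A and WT guide effects 4031 in place of 1531. With the block all genes called were 2321, 1446 and 819 for the guide and 2770, 499 and 1717 under sgPOU2F3. They were 918, 5238 and 7671 under sgRosa and 879, 871 and 4031 for the guide effects. TPM holds no read depth, so no counting error can be given, and 3 libraries a group limit the precision.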
